A study of Homo sapiens with 16 samples.

Results

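The TNF response of HCT116 cells transfected with an siRNA against EZH1 was read from 1 pair of RNA-seq libraries, siEZH1 TNF against siEZH1 PBS. These are 2 of the 6 RNA-seq libraries and of the 16 samples of the series, and they were chosen by their labels. HCT116 is an established human colorectal carcinoma line, and all 6 RNA-seq libraries came from it. The other RNA-seq libraries are 2 labelled NC, whose letters the labels do not spell out and which name no transfection, and 2 from cells transfected with an siRNA against UXT, each set again with PBS and with TNF. Each condition has 1 library. The labels leave out the dose of TNF, the time of exposure and the number of siRNA sequences, and nothing says whether the PBS and TNF cells of a label were transfected separately. The 10 chromatin samples of the series were not analysed here.

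TNF is a cytokine that binds its receptors on the cell surface and switches on the IKK kinase complex. IKK marks the IkB inhibitors for destruction, which frees NF-kB, a family of paired transcription factors built from RELA, RELB, REL, NFKB1 and NFKB2, to enter the nucleus and bind kappaB sites in promoters and enhancers. In epithelial cells the induced genes encode neutrophil-attracting chemokines, adhesion molecules, survival factors and a set of inhibitors, such as NFKBIA and TNFAIP3, that shut the pathway down again. EZH1 is a histone methyltransferase of Polycomb repressive complex 2 (PRC2), which methylates lysine 27 of histone H3 and is best known for gene silencing, and UXT is a prefoldin-like protein described as a cofactor of NF-kB. The title of the series concerns the part that EZH1 and UXT play in the expression of NF-kB targets.

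Values are FPKM, read fragments scaled by transcript length and library size, so levels can be compared between genes per unit of length. The response of a locus is the log2 ratio of FPKM + 1, TNF over PBS. It was taken for the 11778 loci whose 2 values average 1 FPKM or more, out of 16386 loci above 0 in either library, and 10960 of them hold a protein-coding symbol. With 1 library a side there is no spread between replicates and no test of this response. A locus is called higher or lower below only where the ratio is at least 2-fold on that scale, and smaller differences are given as values.

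Promoters of some of the strongest responders are shown first, because the letters that NF-kB is known to favour can be read in them. The sequences are from RefSeq (GRCh38.p14), run 5′ to 3′ on the strand of the gene and end at the last base before the annotated start. Capitals mark matches, on either strand, to the kappaB-like pattern GGNNNTTCC. IL8 is CXCL8 in the RefSeq table. The stretches are chr4:73740419-73740568 (plus strand) for IL8, chr4:73869273-73869392 (plus) for CXCL1, chr4:74099196-74099315 (minus) for CXCL2, chr4:74038690-74038809 (minus) for CXCL3, chr2:227813722-227813841 (plus) for CCL20, chr6:137867139-137867258 (plus) for TNFAIP3 and chr14:35404750-35404869 (minus) for NFKBIA.
IL8: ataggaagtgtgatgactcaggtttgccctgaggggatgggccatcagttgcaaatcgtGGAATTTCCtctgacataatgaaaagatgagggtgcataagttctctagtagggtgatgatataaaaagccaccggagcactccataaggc
CXCL1: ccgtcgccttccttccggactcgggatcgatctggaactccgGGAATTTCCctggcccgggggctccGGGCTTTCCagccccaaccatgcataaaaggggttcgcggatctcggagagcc
CXCL2: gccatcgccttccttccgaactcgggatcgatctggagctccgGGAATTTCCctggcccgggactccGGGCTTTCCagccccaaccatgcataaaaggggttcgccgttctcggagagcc
CXCL3: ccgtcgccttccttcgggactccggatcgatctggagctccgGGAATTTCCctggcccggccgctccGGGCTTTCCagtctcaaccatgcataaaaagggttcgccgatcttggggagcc
CCL20: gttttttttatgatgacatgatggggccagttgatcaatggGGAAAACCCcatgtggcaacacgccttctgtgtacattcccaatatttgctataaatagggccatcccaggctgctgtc
TNFAIP3: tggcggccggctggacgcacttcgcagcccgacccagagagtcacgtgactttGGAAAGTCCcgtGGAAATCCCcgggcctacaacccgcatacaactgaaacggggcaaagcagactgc
NFKBIA: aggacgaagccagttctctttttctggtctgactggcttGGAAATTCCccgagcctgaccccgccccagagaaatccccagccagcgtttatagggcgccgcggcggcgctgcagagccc
IL8 had its match 91 bases before the start, and an AP-1-like TGANTCA match at 137 bases. CXCL1 and CXCL3 each had matches at 78 and 53 bases, CXCL2 at 77 and 53 bases, TNFAIP3 at 67 and 55 bases, CCL20 at 79 bases and NFKBIA at 81 bases. The 3 CXC genes CXCL1, CXCL2 and CXCL3 lie close together on chromosome 4 and have nearly the same letters in this window.

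Over the 250 bases before the start, 18 of the 28 genes at least 4-fold higher that had a RefSeq promoter held GGNNNTTCC on either strand, or 64.3%. Among genes 2-fold to 4-fold higher the share was 32.7% (18 of 55), among those at least 2-fold lower 22.2% (2 of 9), among the 9080 protein-coding loci with a promoter 20.0% (1812), and 17.1% of all 27305 RefSeq promoters held it. The same pattern with one more G in front, every match of which also holds the shorter one, was in 46.4% of the promoters at least 4-fold higher, against 6.6% of those of the protein-coding loci. TGANTCA was in 7.14% (2 of 28) against 3.49%, and in 6.6% of all RefSeq promoters. A match is a description of the letters and not a measured binding site.

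Before the response itself, the knockdown label was checked at its target. EZH1 stood at 4.05 FPKM in siEZH1 PBS and 4.14 in siEZH1 TNF, against 5.45 and 5.12 in NC and 6.27 and 6.23 in siUXT. The siEZH1 libraries were the lowest of the 6, but by a small margin at a low level. The FPKM sums of the 6 libraries lay between 617998 and 649481, and steps in the low values placed siEZH1 TNF at 0.703 and NC TNF at 0.702 of the depth of siEZH1 PBS, with the 3 other libraries between 0.928 and 0.977. Of 12 epithelial markers, 10 were at or above 1 FPKM in the siEZH1 pair, with KRT8, a keratin of simple epithelia, at 709 and 788 FPKM. None of 8 endothelial markers, 1 of 12 leukocyte markers and 2 of 10 fibroblast and muscle markers reached 1 FPKM. The siUXT pair stood apart, with 738 of the 10960 protein-coding loci (6.73%) at least 2-fold higher in siUXT TNF than in siUXT PBS. In the NC pair 119 (1.09%) were. These counts do not show which siUXT library is the unusual one. Values of the siUXT pair are thus set beside the others and no statement rests on them alone.

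TNF was followed by a short, one-sided list of changes in the siEZH1 cells. Of the 10960 protein-coding loci, 102 (0.931%) were at least 2-fold higher under TNF and 12 (0.109%) at least 2-fold lower. At 4-fold the counts were 32 and 0. The median protein-coding locus had a log2 ratio of 0.00, and 5% of the loci lay below -0.37 and 5% above 0.46. This range narrowed with the level, from -0.51 to 0.57 at means of 1 to 2 FPKM to -0.20 to 0.28 at 100 FPKM and above. Of the 102 higher loci 30 had a mean under 5 FPKM, and of the 12 lower ones 10.

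**Figure D1:**
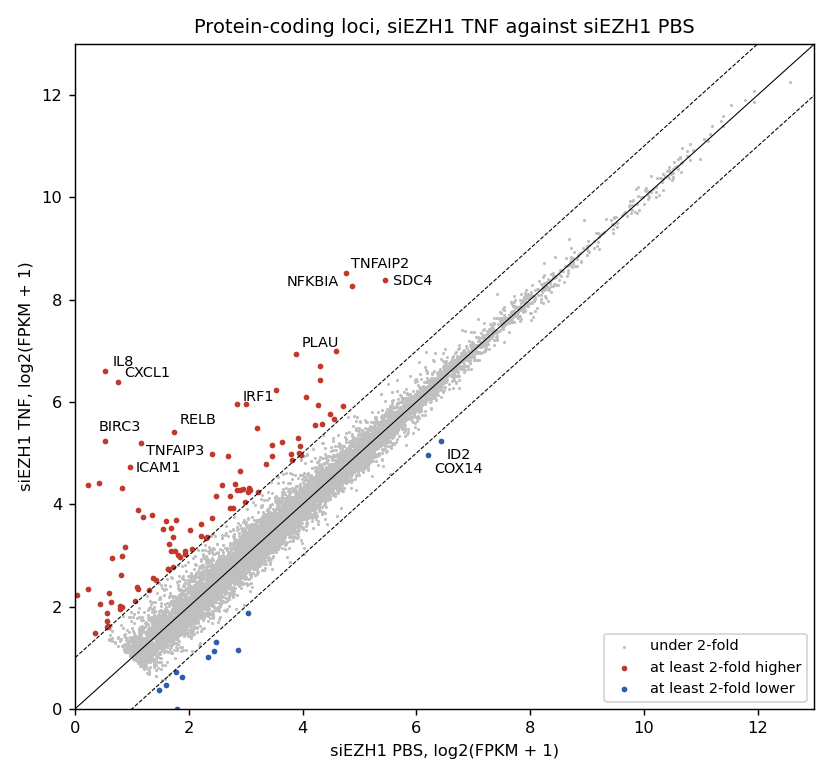
Each point is 1 of 10960 protein-coding loci, with log2(FPKM + 1) in siEZH1 PBS on the horizontal axis and in siEZH1 TNF on the vertical axis. The solid line marks equal levels and the dashed lines a 2-fold difference: 102 loci lie on or above the upper line, IL8 and CXCL1 farthest, and 12 on or below the lower one.

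Among protein-coding loci the 2 largest rises were in chemokine genes, whose products draw neutrophils and lymphocytes to inflamed tissue. IL8, the main human neutrophil chemokine, went from 0.447 to 96.5 FPKM in the siEZH1 pair, from 0.307 to 149 in the NC pair and from 0.321 to 132 in the siUXT pair. Its log2 ratio was 6.07 after EZH1 knockdown, 6.84 in NC and 6.65 in siUXT. CXCL1, another ligand of the neutrophil receptor CXCR2, went from 0.678 to 82.6 FPKM, against 1.29 to 95.6 in NC and 0.244 to 73.4 in siUXT, with ratios of 5.64, 5.396 and 5.90. For both genes the 3 TNF libraries stood far above the 3 PBS libraries, with no overlap.

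CCL20, which attracts cells that carry CCR6, was at 0.165 FPKM without TNF and at 19.8 with it in siEZH1, listed at 0 and at 31.6 in NC, and listed at 0 and at 13.8 in siUXT. CXCL2 was at 0.766 and 19.1 FPKM in siEZH1, 0.114 and 26.4 in NC, and 0 and 17.1 in siUXT. Its ratio of 3.51 in siEZH1 was the smallest of the 3, beside 4.62 and 4.18, and its PBS level there was the highest of the 3. CXCL3 went from 0.343 to 20.5 FPKM, close to the 0.478 and 21.5 of NC, while siUXT reached 10.5. Of the 19 chemokine genes on the list, 6 passed the filter and 5 of these were at least 2-fold higher, where 1.08% of all loci were. But those 5 had under 1 FPKM in PBS and passed through their TNF level alone. The other tested gene, CXCL16, a membrane-bound chemokine, was at 29.8 and 42.5 FPKM. Of the 13 that did not pass, 7 were listed at 0 in both libraries and the highest TNF level was 1.09 FPKM, in CXCL10.

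The NF-kB genes themselves came next. All 11 subunit and IkB genes were tested, all 11 had a ratio above 0, and 8 were at least 2-fold higher, with a median of 1.802 beside 0.01 over all loci, where 1.08% were at least 2-fold higher. RELB, a subunit of the non-canonical pathway, was at 2.35 and 41.6 FPKM in siEZH1, 3.97 and 56.9 in NC, and 5.59 and 47.2 in siUXT. NFKBIA, which encodes the inhibitor IkB alpha, was at 28.2 and 309 FPKM in siEZH1, 26.9 and 379 in NC, and 22.8 and 261 in siUXT, or log2 ratios of 3.41, 3.77 and 3.46. Both genes separated PBS from TNF in all 3 pairs, and the siEZH1 response of NFKBIA was the smallest of the 3 by a narrow margin.

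NFKB2, the precursor of p52, went from 22.9 to 126 FPKM in siEZH1 and from 24.3 to 130 in NC. NFKB1, the precursor of p50, went from 10.1 to 34.6 FPKM, and from 10.2 to 37.5 in NC. BCL3, an atypical IkB protein that works in the nucleus, went from 5.48 to 29.7 FPKM, and from 6.19 to 38.1 in NC. NFKBIE and NFKBIZ had ratios of 1.802 and 1.85, and NFKBIB just reached 2-fold at 14.6 and 30.2 FPKM. RELA, the main activating subunit, stood at 30.7 and 40.2 FPKM, a log2 ratio of 0.38 that lies under the threshold, as did REL at 0.843 and 1.41 and NFKBID at 2.27 and 3.58. REL had the lower TNF level in siEZH1 than in NC (1.69) and siUXT (2.17). In the TNF libraries all 11 genes were lower in siEZH1 than in NC, where 46.6% of all loci were. In the PBS libraries 9 were, where 48.5% of all loci were, and each level is 1 library.

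Of the 21 genes on the NF-kB feedback list, 19 were tested and 5 were at least 2-fold higher, where 1.08% of all loci were. TNFAIP3 encodes A20, a ubiquitin-editing enzyme that ends the signal from the TNF receptor. It stood at 1.22 and 35.8 FPKM in siEZH1, 1.07 and 37.0 in NC, and 0.916 and 28.9 in siUXT. TNFAIP2, a cytokine-induced gene, reached 366 FPKM from 26.1 in siEZH1, 605 from 35.6 in NC and 324 from 37.6 in siUXT. ZC3H12A, an RNase that degrades cytokine messages, was at 2.04 and 11.7 FPKM. ZFP36, which destabilises AU-rich messages, was at 9.18 and 26.7 FPKM in siEZH1, against 13.8 and 55.1 in NC. TRAF3, which restrains non-canonical signalling, was at 7.47 and 18.4 FPKM. The median over the 19 tested genes was 0.07, so the list did not move as a block.

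Upstream of NF-kB most genes were under 2-fold. Of 38 genes from the TNF receptor to IKK and the MAP kinases, 36 were tested and the median was 0.13. At least 2-fold higher were 3 of the 36, where 1.08% of all loci were. TNFRSF1A, the main TNF receptor, was at 27.7 FPKM in both siEZH1 libraries. The 3 higher genes were MAP3K8, a kinase upstream of ERK, at 0.773 and 6.91 FPKM, IKBKE, an IKK-related kinase, at 2.31 and 9.23, and BIRC2, a ubiquitin ligase of the receptor complex, at 14.0 and 38.3. Among 25 interleukin-1 receptor, pattern recognition and adaptor genes, 18 were tested. At least 2-fold higher were 4 of these, beside 1.08% of all loci, namely IRAK2, TICAM1, TIFA and IFIH1. IRAK2, a kinase below the interleukin-1 receptor, was at 1.299 and 12.4 FPKM in siEZH1 and 1.86 and 17.8 in NC.

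Among 15 survival genes, 12 were tested and 2 were at least 2-fold higher, where 1.08% of all loci were. BIRC3, encoding the inhibitor of apoptosis cIAP2, went from 0.432 to 36.7 FPKM in siEZH1, from 0.438 to 32.6 in NC and from 0.204 to 45.5 in siUXT. BIRC2, its neighbour in the family, is also on this list. SOD2, the mitochondrial superoxide dismutase, and CFLAR, which blocks caspase 8, were picked out after their values were seen. SOD2 stood at 72.9 and 85.3 FPKM in siEZH1, 51.5 and 92.7 in NC, and 46.8 and 84.2 in siUXT, so that its PBS level was the highest of the 3 and its ratio, 0.22 beside 0.84 and 0.83, the lowest. CFLAR was at 5.87 and 7.78 FPKM in siEZH1, 4.33 and 10.2 in NC, and 5.11 and 8.92 in siUXT, with ratios of 0.35, 1.07 and 0.70. Of 28 death receptor and apoptosis genes 25 were tested and 1 was at least 2-fold higher, again beside 1.08% of all loci. It was BIK, a BH3-only killer protein, at 17.7 and 45.7 FPKM.

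**Figure D2:**
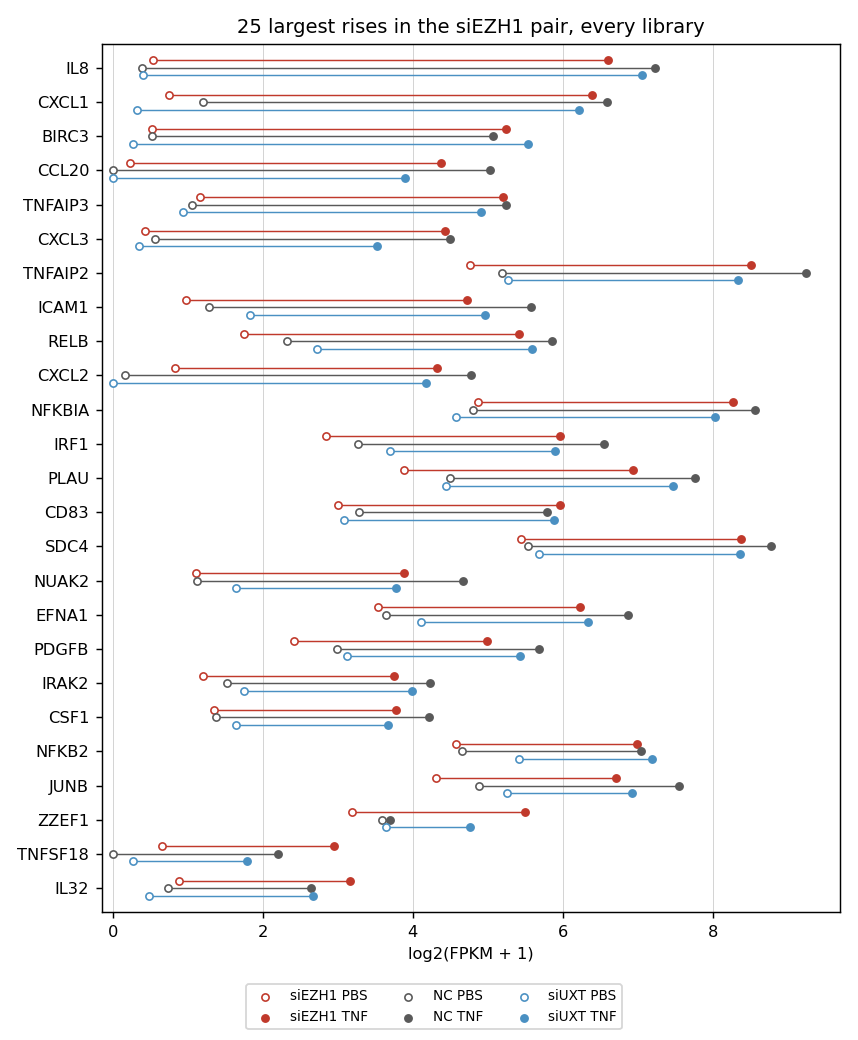
The 25 largest rises among protein-coding loci of the siEZH1 pair, with log2(FPKM + 1) in all 6 libraries: open circles are PBS, filled circles TNF, and each line joins the 2 libraries of a label. In all 25 loci the filled circle lies to the right in all 3 pairs, and ZZEF1 is the locus where the NC line is almost closed (10.99 and 11.95 FPKM).

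Surface and matrix genes formed another group. Of 36 adhesion, protease and matrix genes, 26 were tested and 6 were at least 2-fold higher, where 1.08% of all loci were. ICAM1, the ligand of leukocyte integrins, was at 0.958 and 25.5 FPKM in siEZH1, 1.42 and 46.5 in NC, and 2.55 and 30.1 in siUXT. PLAU, the urokinase plasminogen activator, was at 13.7 and 121 FPKM in siEZH1, 21.6 and 215 in NC, and 20.8 and 176 in siUXT. Both genes had the lowest PBS and the lowest TNF level of the 3 transfections in siEZH1, while the log2 ratios of PLAU were 3.05, 3.26 and 3.02. SDC4, a heparan sulfate proteoglycan, reached 332 FPKM from 42.6, beside 438 from 45.6 in NC. EFNA1, an ephrin ligand first found as a TNF-induced gene, reached 74.0 from 10.6, beside 116 from 11.5. CD83, a surface glycoprotein, was one of the genes with a larger ratio in siEZH1, at 7.01 and 61.1 FPKM against 8.72 and 54.4 in NC. LAMB3, the beta chain of laminin 332, went from 6.94 to 15.6 FPKM, well under the NC levels of 14.7 and 32.7, with ratios of 1.06 and 1.10.

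Cytokine and growth factor genes were mostly at low levels: of 38, 22 did not pass the filter, and 10 of these were listed at 0 in both libraries, TNF and IL6 among them. Of the 16 tested, 5 were at least 2-fold higher, where 1.08% of all loci were. PDGFB, a platelet-derived growth factor chain, was at 4.32 and 30.7 FPKM in siEZH1, 6.95 and 50.2 in NC, and 7.69 and 42.2 in siUXT. CSF1, the macrophage growth factor, was at 1.55 and 12.7 FPKM, against 1.599 and 17.6 in NC. LIF, a cytokine of the interleukin-6 family, was at 12.9 and 30.4 FPKM in siEZH1, 24.0 and 60.6 in NC, and 31.9 and 48.8 in siUXT. IL32 and CSF2 also passed, from PBS levels of 0.837 and 0.359 FPKM. TNFSF18, the ligand of the receptor GITR, was at 0.570 and 6.69 FPKM in siEZH1 and reached 3.59 in NC and 2.45 in siUXT.

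Transcription factors outside the NF-kB family also responded. Of 40 AP-1, ATF, EGR and other immediate early genes, 32 were tested. At least 2-fold higher were 5 of these, beside 1.08% of all loci: JUNB, MAFF, ATF3, JUN and FOSL2. JUNB, an AP-1 subunit, was at 18.9 and 103 FPKM in siEZH1, 28.5 and 186 in NC, and 37.4 and 120 in siUXT. JUN was at 2.20 and 7.49 FPKM in siEZH1, below the 12.8 of NC TNF and the 20.8 of siUXT TNF. ATF3, a stress-induced factor, was at 4.60 and 16.8 FPKM, with ratios of 1.67, 1.95 and 1.98. FOS and EGR1, which peak early after a stimulus, stood at 1.85 and 2.47 and at 20.2 and 22.7 FPKM. ELF3, an epithelial ETS factor counted among the epithelial markers, was at 15.8 and 67.2 FPKM in siEZH1 and 24.2 and 89.0 in NC.

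The interferon arm was led by IRF1, a transcription factor that is a direct NF-kB target, at 6.16 and 61.6 FPKM in siEZH1, 8.62 and 92.8 in NC, and 11.9 and 58.7 in siUXT. Of 30 interferon receptor, JAK-STAT and IRF genes, 29 passed the filter and fall into 28 loci. At least 2-fold higher were 4 of these, beside 1.08% of all loci: IRF1, IFNGR2, IFNGR1 and IRF2. The receptor chain IFNGR2 was at 18.9 and 85.2 FPKM and IFNGR1 at 19.3 and 46.4. The genes that interferon itself induces differed less: of 45 interferon-stimulated genes 32 were tested, with a median of 0.14, 1 at least 2-fold higher (OAS3, at 13.01 and 27.96 FPKM) and 1 at least 2-fold lower (IFI27, from 2.44 to a listed 0). Over all loci 1.08% were higher and 0.348% lower. IFI27 was lower in every TNF library, at 3.24 and 1.40 in NC and 1.73 and 0.341 in siUXT. Of 17 MHC class I and immunoproteasome genes 11 were tested, and CD274, which encodes the checkpoint ligand PD-L1, was the 1 at least 2-fold higher, at 0.729 and 3.01 FPKM. HLA-B stood at 115 and 167 FPKM and B2M, its light chain, at 409 and 585, both under 2-fold.

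**Figure D3:**
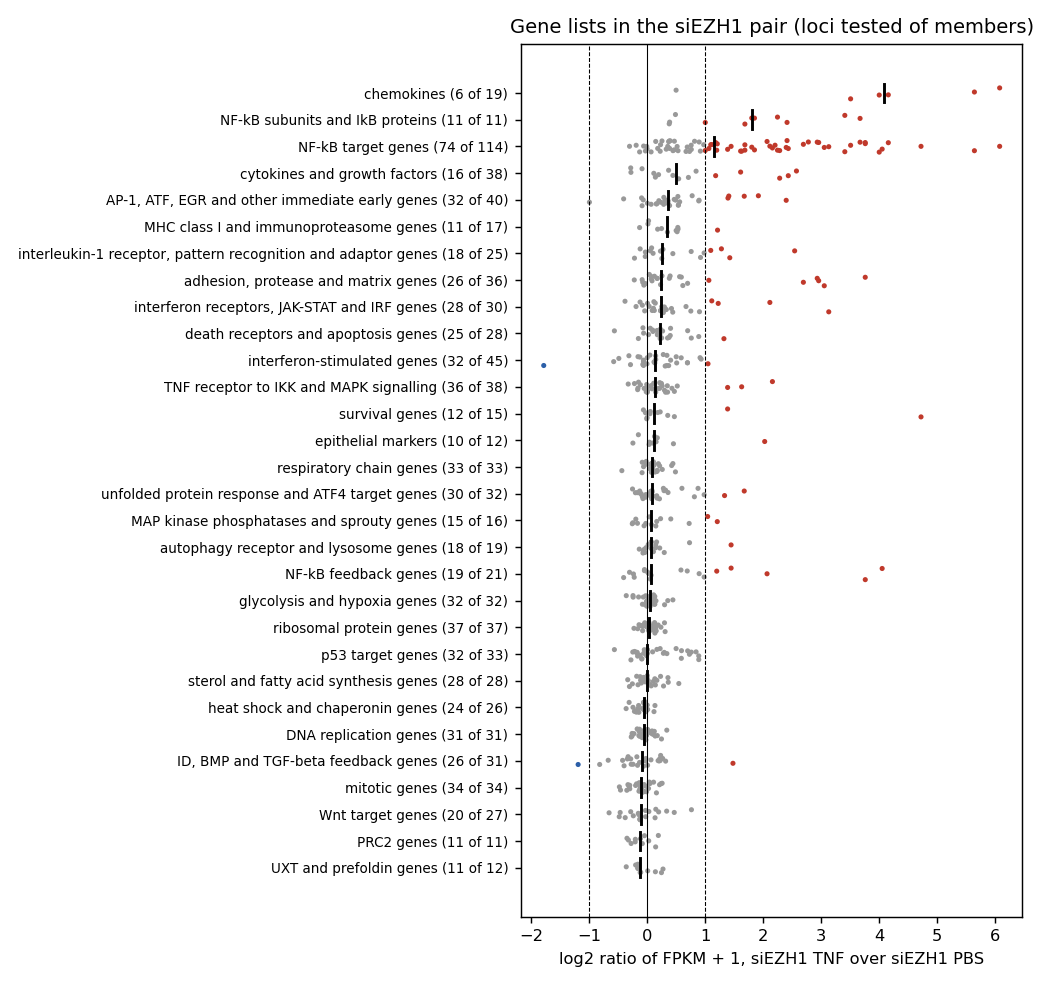
Log2 ratios in the siEZH1 pair for 30 gene lists, 1 point per tested locus, with red at least 2-fold higher, blue at least 2-fold lower and a black bar at the median; dashed lines mark 2-fold. The numbers in brackets are loci tested of members, and the chemokine (4.08), NF-kB subunit (1.802) and NF-kB target (1.15) lists have the highest medians over tested loci; 5 of the 6 chemokine loci passed the filter only through their TNF level, and over genes with at least 1 FPKM in PBS the NF-kB target median was 0.92.

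The list of 114 NF-kB target genes gathers many of these genes, and it was compiled with earlier results of these data known. Of these, 74 passed the filter, 14 of them with under 1 FPKM in PBS, and 41 were at least 2-fold higher and 0 lower. Over all tested loci 1.08% were higher and 0.348% lower. Of the 61 listed genes with at least 1 FPKM in PBS, which include LCN2 although its mean was under the filter, 30 were at least 2-fold higher. Among all 11738 loci with at least 1 FPKM in siEZH1 PBS, 84 (0.716%) were. The 40 that did not pass include 16 listed at 0 in both libraries, 16 higher and 8 lower under TNF. Over all genes of the list above 0 (98 loci, no filter) the median log2 ratio was 0.72, and over the 74 tested 1.15, beside 0.01 over all loci. Thus 41 of the 102 higher protein-coding loci were on the list, 59 were on at least 1 of the 33 lists and 43 on none. The 43 include SLC12A7, a potassium-chloride cotransporter (11.4 and 36.2 FPKM), ANKRD33B (1.91 and 10.5), PTP4A3, a phosphatase (5.98 and 19.9), the chemokine receptor CXCR4 (2.13 and 8.36) and the mucin MUC1 (3.64 and 11.2), which were chosen after their values were seen.

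Lower loci were fewer and less alike between transfections. ID2, an inhibitor of helix-loop-helix transcription factors, was the clearest: 85.4 and 36.8 FPKM in siEZH1, 105 and 36.2 in NC, and 66.5 and 33.3 in siUXT, so that the 3 TNF libraries lay below the 3 PBS libraries. HES1, a repressor below Notch, stood just short of 2-fold, at 15.3 and 7.17 FPKM in siEZH1, 15.5 and 10.1 in NC, and 15.4 and 9.35 in siUXT. In the list of 31 ID, BMP and TGF-beta feedback genes (26 tested, median -0.10), GATA2 was at 20.6 and 11.3 FPKM in siEZH1, 23.2 and 9.71 in NC, and 25.01 and 9.62 in siUXT, and MSX2, a BMP target, at 14.7 and 8.83 in siEZH1. SMAD3, a signal carrier of the TGF-beta receptor, went the other way, from 10.0 to 29.7 FPKM.

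Other lower loci differed less, or the other way, in the other pairs. COX14, an assembly factor of cytochrome c oxidase, was at 73.2 and 30.1 FPKM in siEZH1, 86.3 and 50.5 in NC, and 61.3 and 75.6 in siUXT. The locus shared by RPP21 and TRIM39, whose values cannot be assigned to 1 gene, was at 6.31 and 1.21 FPKM in siEZH1 and 2.70 and 1.61 in NC. Of the 12 lower loci, 5 had the same sign in all 3 pairs, 1 (ID2) was at least 2-fold lower in NC, where 0.0547% of the protein-coding loci were, and 1 (IFI27) in siUXT, where 0.164% were. The median ratio of these 12 was -1.22 in siEZH1, where they were chosen, -0.07 in NC and -0.09 in siUXT. At the 2-fold line itself, NFKBIB (1.00) and CDC42EP2 (1.024) were just inside and SGPP2 and OAZ3 (both 0.99) just outside, and WFDC2 (-1.06) was just inside on the lower side.

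**Figure D4:**
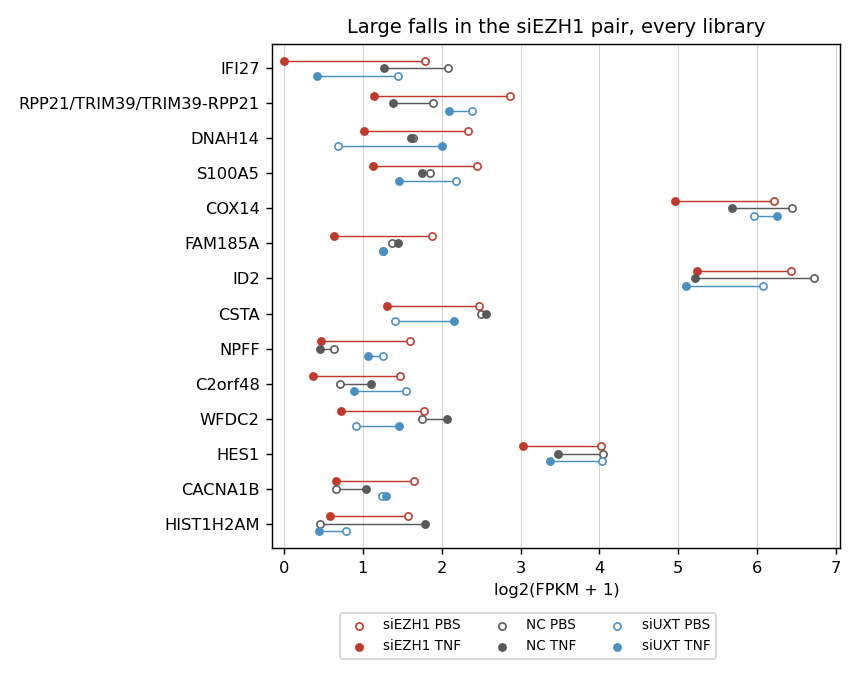
Of the 15 largest falls among protein-coding loci of the siEZH1 pair, 14 are shown in all 6 libraries, with log2(FPKM + 1) on the axis, open circles PBS and filled circles TNF. ID2, HES1 and IFI27 are among those with the filled circle to the left in all 3 pairs. CSTA and WFDC2 are among those with it to the left only in the siEZH1 pair.

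The housekeeping and growth lists held no locus 2-fold apart. None of 34 mitotic, 31 replication, 33 respiratory chain, 37 ribosomal protein, 28 sterol and fatty acid, 32 glycolysis and hypoxia or 24 heat shock and chaperonin loci was 2-fold apart, and the medians lay between -0.10 and 0.08. Over all loci 1.08% were at least 2-fold higher and 0.348% lower, so lists of this size would hold few such loci in any case. CENPF and TTK, both needed for chromosome segregation, stood at the low end, at 14.0 and 9.73 and at 20.3 and 14.5 FPKM. Stress programs held more loci between 1.5-fold and 2-fold. Of 32 tested p53 targets none was 2-fold apart, the median was 0.00 and 18 had a ratio above 0. Yet 8 were at least 1.5-fold higher, where 3.28% of all loci were. BTG2, an antiproliferative gene, stood at 15.9 and 30.4 FPKM and GDF15, a stress cytokine, at 44.3 and 80.2. In NC 3 of the 32 were at least 2-fold higher and in siUXT 5, where 1.09% and 6.73% of the protein-coding loci were. Among 30 tested unfolded protein response and ATF4 genes, 6 were at least 1.5-fold higher and 2 of these at least 2-fold: ATF3, named above, and CHAC1, which breaks down glutathione, at 2.38 and 7.51 FPKM. The 11 PRC2 genes had a median of -0.12 and none was 2-fold apart; the core subunits SUZ12, EED and EZH2 were at 25.9 and 20.5, 16.3 and 12.6, and 31.5 and 27.1 FPKM. UXT was at 64.9 and 77.1 FPKM.

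Loci without a protein-coding symbol gave 25 higher and 29 lower calls. Of these, 10 and 21 were listed at 0 in 1 of the 2 libraries, and 9 and 13 were small nucleolar RNAs. With them the counts over all 11778 loci were 127 higher and 41 lower (1.08% and 0.348%).

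The siEZH1 response was then set beside the responses of the NC and siUXT pairs, which share no library with it. Of the 102 higher loci, 81 were also at least 2-fold higher in NC, which is 79.4% of the siEZH1 loci and 68.1% of the 119 of NC. In siUXT 57 were, or 55.9% of the siEZH1 loci and 7.72% of the 738 of siUXT. The 119 and 738 were counted only among loci that passed the filter on the siEZH1 pair. The sign was the same in all 3 pairs for 93, and 53 were at least 2-fold higher in all 3. Over all 10960 protein-coding loci, 1.09% were at least 2-fold higher in NC and 6.73% in siUXT, and 5140 and 5075 had a ratio above 0. Over the 10960 protein-coding loci, the responses of siEZH1 and NC had a Spearman rho of 0.52 and those of siEZH1 and siUXT one of -0.28. Genes are not independent replicates, and the TNF libraries of siEZH1 and NC also share a lower depth (0.703 and 0.702), the part of which was not tested. Across genes, the siEZH1 ratio had a rho of -0.18 with the length of the gene, the NC ratio one of -0.22 and the siUXT ratio one of 0.23.

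**Figure D5:**
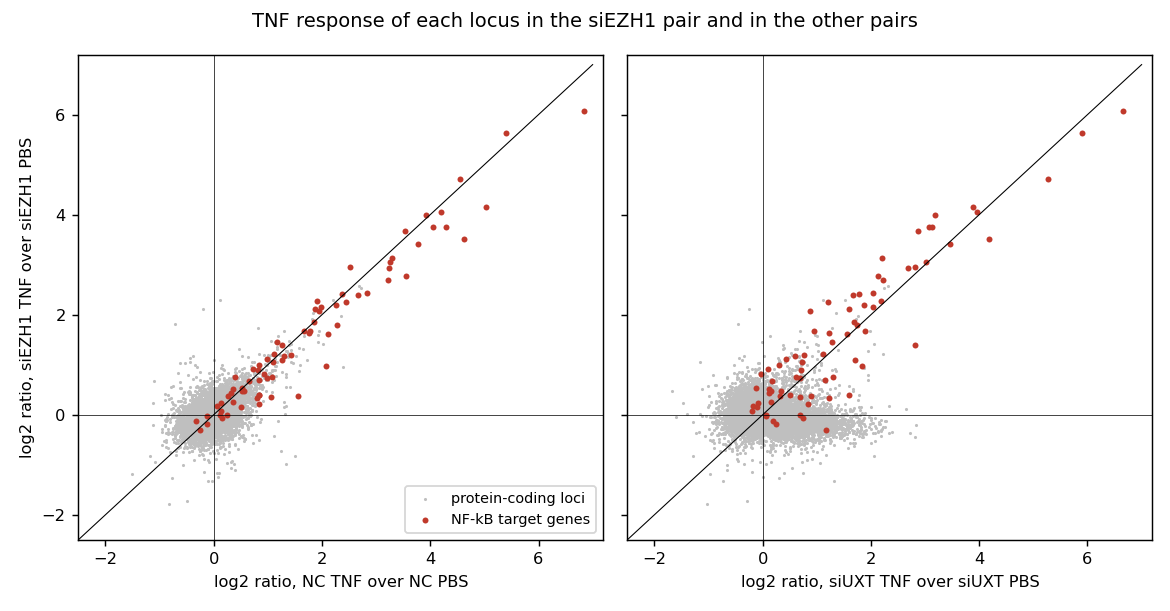
Log2 ratios of FPKM + 1, TNF over PBS, of the siEZH1 pair (vertical) against the NC pair (left panel) and the siUXT pair (right panel) for 10960 protein-coding loci in grey and the 74 tested NF-kB target loci in red. The line marks equal responses: 45 of the 74 red points lie below it in the left panel and 24 in the right.

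For the NF-kB targets the median log2 ratio was 1.15 after EZH1 knockdown, 1.26 in NC and 1.19 in siUXT. The ratio was lower in siEZH1 than in NC at 45 of the 74 tested loci, where 44.5% of all loci were lower, with a median difference of -0.10 beside 0.03 over all loci. Against siUXT it was lower at 24 of the 74, where 45.7% of all loci were, with a median difference of 0.16 beside 0.07 over all loci. The list median and the median difference thus put siEZH1 on opposite sides of siUXT. In 17 of the 74 the siEZH1 ratio was the lowest of the 3, in 35 the middle one and in 22 the highest. Levels differed more than ratios. The TNF level was below that of NC TNF in 60 of the 74, where 46.6% of all loci were, and the PBS level below that of NC PBS in 47, where 48.5% were. The median log2 level relative to NC was -0.30 with TNF and -0.13 with PBS, beside 0.03 and 0.01 over all loci. Each of these levels is 1 library, so a difference between libraries cannot be told apart from one between transfections.

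The difference itself was tested with limma over all 6 libraries, as siEZH1 against the mean of NC and siUXT. The test has 1 residual degree of freedom, from the gap between the NC and siUXT pairs, and limma pooled that gap over loci of like expression, so a locus's own gap does not set its error. The siUXT pair, which stands apart, enters it. None of the 74 NF-kB target loci passed (Benjamini-Hochberg adjusted p of 0.9996 at the lowest, 0 at an unadjusted p under 0.05). Over 11845 loci, 50 passed at 0.05, 23 higher (0.194%) and 27 lower (0.228%), of which 46 hold no protein-coding symbol and 42 were listed at 0 in at least 1 library. The 4 protein-coding ones were SMIM6, RPSAP58, WAPAL and DNAH14. WAPAL, now WAPL, which releases cohesin from chromosomes, was at 23.2 and 12.6 FPKM in siEZH1, 13.2 and 39.0 in NC, and 6.95 and 32.0 in siUXT, a difference of -2.60 (limma, adjusted p = 0.00456). SMIM6, a small membrane protein, was at 0.168 and 4.04 FPKM in siEZH1 and between 0.487 and 1.28 in the other 4 libraries (limma, 2.34, adjusted p = 4.64e-04). When protein-coding loci alone were fitted SMIM6 was the 1 locus that passed, and with no filter on the level 0 passed (489 at an unadjusted p under 0.05; lowest adjusted p 0.463), so the WAPAL call ends under both.

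Among protein-coding loci ZZEF1 had the third highest difference from NC (2.19) and did not pass the limma test (adjusted p = 0.924). Its locus also carries another symbol, and it was at 8.15 and 44.0 FPKM in siEZH1, 10.99 and 11.95 in NC, and 11.4 and 26.1 in siUXT. GLI1, the Hedgehog target, was at 1.45 and 3.99 FPKM in siEZH1 and 3.55 and 2.16 in NC, and ABCG2, a drug efflux pump, at 2.56 and 4.67 and at 4.20 and 1.41. At the other end S100A3, a calcium-binding protein, reached 7.65 FPKM from 3.48 in siEZH1, 21.4 from 3.29 in NC and 9.55 from 4.42 in siUXT, so that NC TNF was the library apart from the rest. STX11, a syntaxin on the NF-kB target list picked out after its values were seen, reached 2.53 FPKM in siEZH1, 5.30 in NC and 3.77 in siUXT. Of the 102 higher loci 17 were at least 2-fold higher in the siEZH1 pair only. Over the protein-coding loci 1.09% were at least 2-fold higher in NC and 6.73% in siUXT. Of the 119 in NC, 81 were also higher in siEZH1, so NC had loci of its own as well. Among the 17 were NFKBIB, right at the line in siEZH1 (1.00), and OAS3, with NC ratios of 0.84 and 0.75, under the threshold.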

How the data were processed

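RNA was measured in 6 libraries of HCT116 cells, with 1 library per condition, made from poly(A) RNA per the labels' protocols. The authors deposited 1 table of FPKM values per library, listing 28502 gene symbols. FastQC, cutadapt, TopHat2, Bowtie, SICER and the hg19 build are named, per the submitters' processing notes. Not given in the sources used here were their versions, the program that made the FPKM values, the annotation and the strand setting. Genes that overlap, lie antisense or are near copies of each other are thus uncertain. The number of reads is unknown; relative depth was taken from steps of values under 0.4 FPKM (tolerance 2%; 316 to 379 loci per library).

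Rows that matched in every one of the 6 libraries became 1 locus, for 17642 loci above 0; 402 of the 11778 tested loci carry several protein-coding symbols. The log2 ratio was log2((TNF + 1)/(PBS + 1)) and understates changes of low genes. The filter was a mean of at least 1 FPKM over the siEZH1 pair. No test was possible within the pair. The difference between transfections was tested with limma 3.58.1 in R 4.3.3 (trend, Benjamini-Hochberg adjustment) on log2(FPKM + 1), with transfection, treatment and the siEZH1 by TNF term, filtered on a mean of 1 FPKM over 6 libraries; it was tested on simulated data. Its prior degrees of freedom were infinite, so loci of like expression shared 1 spread. A RefSeq table (GRCh38.p14; 22789 symbols matched) gave gene types, and 1 promoter per gene was searched.

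Named genes were the 25 largest rises, the 15 largest falls, up to 4 genes per list, the 8 highest and 8 lowest differences from NC, and 10 genes set by name; further genes named give the members of counts or were picked after their values were seen. The members and lists were chosen with earlier results of these data known. Alternatives were other pseudocounts, filters, scaling, folds and merging. One of the 15 falls is not reported here.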

Additional observations from a re-analysis of the deposited data

Results flagged for a closer look

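At 4 protein-coding loci the TNF response differed between siEZH1 and the mean of NC and siUXT by the limma test of that difference (Benjamini-Hochberg adjusted p under 0.05). The differences were 2.34 for SMIM6 (adjusted p = 4.64e-04), 2.39 for RPSAP58 (adjusted p = 0.00461), -2.60 for WAPAL (adjusted p = 0.00456) and -1.96 for DNAH14 (adjusted p = 0.0494), on the log2(FPKM + 1) scale. RPSAP58 stood at 0.751 and 5.12 FPKM in siEZH1, 7.88 and 4.44 in NC, and 1.62 and 0.905 in siUXT; it is a near copy of the ribosomal protein gene RPSA, and how the counting shared reads between them was not stated in any label. DNAH14, a dynein heavy chain, stood at 4.03 and 1.01 FPKM in siEZH1, 2.11 and 2.04 in NC, and 0.608 and 3.01 in siUXT, so its NC and siUXT pairs differ from each other by more than 1 on the log2 scale. Each value is 1 library. With protein-coding loci alone, an alternative chosen after seeing the data, 1 locus passed, SMIM6 (adjusted p = 0.0105).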

How the results depend on the processing

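Of 127 loci higher and 41 lower, a pseudocount of 0.1 gave 202 and 79, a fold of 1.5 gave 386 and 154, a mean of at least 5 FPKM left 14 lower and protein-coding loci with 1 symbol 11 lower. A pseudocount of 0.5, size factors, merging on the pair and no filter kept both counts within 1.5 times. The median of the NF-kB list was 1.15, and 0.72 with no filter, where low loci enter. Its median difference of -0.10 against NC was 0.16 against siUXT, beside 0.03 and 0.07 over all loci. The 50 loci of the limma test became 22 at a mean of at least 5 FPKM, 1 among protein-coding loci only (chosen after seeing the data) and 0 with no filter, where 489 had an unadjusted p under 0.05, against 180 of the loci with the filter; limma's prior degrees of freedom fell from infinite to 1.76 there, and the cause was not tested. All 69 named loci at least 2-fold apart stayed so with size factors. The other settings could not bring such a ratio under 2-fold, but stricter filters dropped loci. A mean of at least 5 FPKM kept 43 of the 69, and protein-coding loci with 1 symbol kept 65. A smaller pseudocount enlarges a ratio, and no filter or merging on the pair leaves it unchanged. NFKBIB, at 1.00, is not among the 69, and with size factors 125 loci were higher. Without the NC or siUXT libraries the limma test has no residual degrees of freedom. No paired analysis was possible because the labels give no replicate numbers to block on and each condition has 1 library; the limma model holds a transfection term. Depth is unknown, so no counting error could be given.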

Other observations

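Most genes known for feedback on the MAP kinases were under 2-fold. Of 16 MAP kinase phosphatase and sprouty genes 15 were tested, with a median log2 ratio of 0.07. At least 2-fold higher were 2 of the 15, where 1.08% of all loci were. DUSP5, a nuclear phosphatase that acts on ERK, was at 25.3 and 59.8 FPKM in siEZH1 PBS and TNF, 33.4 and 73.8 in NC, and 30.5 and 67.4 in siUXT. DUSP8 was at 1.08 and 3.28 FPKM in siEZH1. Of 18 tested autophagy receptor and lysosome genes OPTN, which encodes the receptor optineurin, was the 1 at least 2-fold higher, at 5.59 and 16.9 FPKM in siEZH1, 4.31 and 10.9 in NC, and 6.27 and 16.6 in siUXT.

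Of 27 Wnt target genes 20 were tested and none was 2-fold apart, with a median of -0.11. Over all loci only 1.08% were at least 2-fold higher and 0.348% lower. SOX9, a transcription factor of the intestinal crypt, was at 29.7 and 18.5 FPKM in siEZH1. The locus of AXIN2, a feedback inhibitor of Wnt signalling, was at 34.3 and 24.3 FPKM in siEZH1, 22.6 and 15.6 in NC, and 28.1 and 19.5 in siUXT, lower under TNF in all 3 pairs but under 2-fold in each. MYC was at 70.6 and 98.0 FPKM in siEZH1, and higher under TNF in the other pairs as well (83.2 and 120 in NC, 107 and 136 in siUXT).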
